A study of Mus musculus with 12 samples.

Results

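The 777 broad wild-type domains are the widest stretches of autosomal chromatin under H3K27me3 peaks in experiment 1, and each was at least 20000 bp wide. They were chosen by measured values. Peaks of the 2 wild-type libraries of experiment 1 were joined where they overlapped by 1 bp or more, and a joined region was retained if both libraries contributed a peak to it. Of 45953 such regions on the autosomes, 777 reached 20000 bp and 45176 were narrower. The coverage of the domains in the experiment 1 wild type, their width and the loss against that wild type are therefore descriptions and carry no test. Peaks of replicate 1 alone gave 260 stretches of this width and those of replicate 2 alone gave 591.

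H3K27me3 is the trimethylation of lysine 27 on histone H3, placed by Polycomb repressive complex 2 (PRC2) through its catalytic subunit, Ezh2 or Ezh1. PRC2 also binds the mark it makes through its Eed subunit, which allows the mark to spread from a recruiting site along a chromosome. Broad domains of it are known over silent developmental genes, the Hox clusters being the classical case.

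All samples were iMEFs, mouse embryonic fibroblasts immortalized with c-Myc, from 1 clone that carried a conditional Ezh2 allele and a tamoxifen-activated Cre recombinase at ROSA26. The methods of the paper give its other Ezh2 allele as already deleted. They describe deletion of the conditional allele by treatment with hydroxytamoxifen, so the drug goes with the deletion. A single clone limits what the libraries can show about other cells. The wild type is labelled Ezh2 WT/WT and the knockout Ezh2 -/-, and the rescue lines received a retroviral Ezh1 or Ezh2 transgene before the endogenous gene was deleted. Experiment 1 held 2 wild-type and 2 knockout libraries, sequenced on a SOLiD instrument as 75-bp reads. Experiment 2 held 2 libraries each of wild type and knockout and 1 of each rescue, sequenced on an Illumina HiSeq instrument as 100-bp reads, with another antibody against the mark. The platform, the antibody, the form of the peak lists and the experiment cannot be told apart. The deposited files hold peak coordinates without heights. Sequencing depth at a peak is therefore unknown, and coverage below is the percentage of bases under peaks, not an amount of mark. The labels do not say whether replicates were separate cultures, and the spread between them may be technical. The deletion of Ezh2 cannot be read from peak positions, nor can the identity of the cells.

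Sequences from the domains are given as examples, chosen by domain width or coverage and not by base composition. The first 4 are the 250 bases before the transcription start site (TSS) of genes in the widest domains that hold one, taken in order of width where this stretch overlaps no annotated exon, and read from mm9 on the strand of the gene. The stretch before Skap1, in a domain of 83379 bp, overlaps an exon and was passed over for that of Ngfr, in a domain of 64794 bp. Capitals mark CG dinucleotides, the sites of DNA methylation and the hallmark of the CpG islands at which PRC2 is known to be recruited.
Mcf2l, chr8:12873556-12873805, plus strand: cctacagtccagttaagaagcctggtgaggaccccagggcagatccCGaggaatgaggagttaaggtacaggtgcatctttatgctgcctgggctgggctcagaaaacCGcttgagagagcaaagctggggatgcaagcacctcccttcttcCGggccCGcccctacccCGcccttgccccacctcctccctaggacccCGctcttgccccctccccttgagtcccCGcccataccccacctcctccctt
Hoxb13, chr11:96055380-96055629, plus strand: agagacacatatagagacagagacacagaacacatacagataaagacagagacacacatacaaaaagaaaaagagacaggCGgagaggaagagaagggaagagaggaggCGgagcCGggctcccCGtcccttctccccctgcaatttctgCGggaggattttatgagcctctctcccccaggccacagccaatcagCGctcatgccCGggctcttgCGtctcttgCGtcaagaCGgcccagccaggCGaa
Irf8, chr8:123260008-123260257, plus strand: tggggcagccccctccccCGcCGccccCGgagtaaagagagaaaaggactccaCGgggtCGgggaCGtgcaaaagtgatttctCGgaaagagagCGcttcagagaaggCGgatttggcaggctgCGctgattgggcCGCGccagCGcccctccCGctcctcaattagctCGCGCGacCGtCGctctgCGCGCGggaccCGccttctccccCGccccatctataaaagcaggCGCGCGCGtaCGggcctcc
Ngfr, chr11:95449050-95449299, minus strand: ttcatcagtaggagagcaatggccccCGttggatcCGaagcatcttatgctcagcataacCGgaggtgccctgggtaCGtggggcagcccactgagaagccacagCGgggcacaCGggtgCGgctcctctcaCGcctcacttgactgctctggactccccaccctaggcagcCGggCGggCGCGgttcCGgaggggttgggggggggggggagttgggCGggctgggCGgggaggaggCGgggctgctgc
The Irf8 stretch held 29 CG dinucleotides, that of Ngfr 16, that of Hoxb13 11 and that of Mcf2l 7. The median over the same window of 21418 autosomal protein-coding TSSs was 9.

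The next 3 sequences are stretches of 200 bases on the plus strand of mm9, from domains that stood at the ends of the comparisons below. The first pair are the middle of the Actl7b domain, which had no peak in the Ezh1 rescue, and of the Srcin1 domain, which had the highest coverage in the experiment 2 wild type. The last is the middle of the widest stretch of the Grinl1a and Gcom1 domain that lay under peaks of both experiment 2 knockouts, 7950 bp.
Actl7b, chr4:56354276-56354475: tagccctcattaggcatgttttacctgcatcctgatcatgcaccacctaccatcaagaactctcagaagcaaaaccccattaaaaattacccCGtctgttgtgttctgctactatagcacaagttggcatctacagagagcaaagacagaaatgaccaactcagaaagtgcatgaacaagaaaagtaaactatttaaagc
Srcin1, chr11:97422148-97422347: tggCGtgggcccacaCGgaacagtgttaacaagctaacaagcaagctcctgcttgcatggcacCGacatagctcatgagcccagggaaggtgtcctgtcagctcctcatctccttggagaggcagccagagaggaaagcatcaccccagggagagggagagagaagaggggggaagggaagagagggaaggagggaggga
Grinl1a and Gcom1, chr9:71365226-71365425: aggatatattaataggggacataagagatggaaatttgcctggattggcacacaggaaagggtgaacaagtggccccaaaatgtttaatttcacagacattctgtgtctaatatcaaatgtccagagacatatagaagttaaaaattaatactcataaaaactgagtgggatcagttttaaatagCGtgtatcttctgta
The first lies between genes, and the other two lie within introns. G and C made up 41.0% of the Actl7b stretch, 58.5% of the Srcin1 stretch and 35.0% of the stretch in the Grinl1a and Gcom1 domain.

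The domains spanned 23.3 Mb in all, with a median width of 26223 bp and a maximum of 156492 bp. A protein-coding TSS lay inside 176 of them (22.7%), 297 (38.2%) overlapped a gene body without its start, and 304 (39.1%) lay between genes. The first share stood at 3.21% among all reproducible wild-type regions, most of which were far narrower. Among autosomal windows of 20 kb, also narrower than the median domain, it was 14.8%. Of the autosomal protein-coding genes, 218 (1.02%) had their TSS inside a domain and 457 (2.15%) overlapped one. The domains themselves took up little of each autosome, from 0.227% of chromosome 12 to 2.61% of chromosome 19. The gene shares are therefore not read as low or high. Domains that held a TSS were slightly wider, with a median of 28189 bp against 26199 bp within gene bodies and 25288 bp between genes.

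Within 50000 bp of another broad domain stood 382 (49.2%), which formed 145 groups. The rule joined no peaks across a gap, so a stretch cut by a short gap counts as separate domains. The smallest gap was 55 bp and the median gap to the next domain 317261 bp. With no such share for other regions, the count is not read as clustering. The group with the most domains, 8, ran over the Hoxb cluster and into Skap1 (chr11:96005054-96576075), and its domains took up 86.2% of the 571022 bp. It began around Hoxb13, passed Hoxb9 and Hoxb8, then Hoxb7, Hoxb6 and Hoxb5, then Hoxb1, and ended within Skap1, an adaptor protein of T cells. Density was highest on chromosomes 19 and 11, with 7.82 and 6.73 domains per 10 Mb, and lowest on chromosome 12, with 0.907.

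Genes of development, taken from lists that do not hold every member of a class, were unevenly represented. HOX cluster genes, which set position along the body axis, had 10 of 39 TSSs inside 6 domains. Among neural and ectodermal transcription factors it was 9 of 55, namely Pax2, Pax3, Pax6, Six3, Six6, Dlx6, Lhx1, Vax2 and Uncx. Mesoderm and endoderm factors had 3 of 68, which were Nkx2-3, Tcf21 and Pitx1, and blood and endothelial genes had 5 of 41, which were Irf8, Gfi1b, Lmo2, Skap1 and Slc4a1. Epithelial genes had 1 of 37, Pkp1, and axon guidance genes had 2 of 57, Robo4 and Ntng2. None of the 71 listed ion channel genes had a TSS in a domain, yet 10 of them overlapped one, the calcium channel genes Cacna1a, Cacna1b, Cacna1c, Cacna1d, Cacna1g and Cacna1h among them. Chrna4 and Kcne3, channel genes outside the list, did have a TSS in a domain. Secreted developmental signals had 0 of 66 TSSs in a domain, and Wnt3a, Wnt7a and Fgf20 overlapped one. Neither a TSS nor a gene body in a domain was found for the 29 fibroblast genes, the 28 housekeeping genes, the 30 cell cycle genes or the 33 Polycomb complex genes. Of 25 cell cycle inhibitors and tumor suppressors none had its TSS in a domain and 1, Dab2ip, overlapped one. These counts stand beside the 1.02% and 2.15% of all genes and carry no test. Each holds for its list and not for the whole class. Pdx1 and Dmbx1, for example, had a TSS in a domain and were in no list. The domain with the most TSSs held 4 olfactory receptor genes, Olfr1413 to Olfr1410, in 45360 bp on chromosome 1. Another 6 domains held 3 TSSs each, the widest of them that of Gm17416 and the beta-defensin genes Defb21 and Defb19 (44681 bp), with those of Hoxb9 and Hoxb8 and of Hoxb7, Hoxb6 and Hoxb5 among the rest.

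The domains were nearly without peaks in the knockouts of both experiments, while peaks of both rescues covered far more of them than the wild type of the same experiment did. In the experiment 1 wild type, 90.1% and 97.7% of domain bases lay under peaks, as the selection requires. The experiment 1 knockouts had 0.401% and 1.37% of these bases under peaks. The experiment 2 wild type, which had no part in choosing the domains, had 9.94% and 7.29%, and the experiment 2 knockouts had 0.148% and 0.728%. The Ezh1 rescue reached 85.7% and the Ezh2 rescue 48.8%. Both wild-type libraries of experiment 2 thus lay above both of its knockouts and below both rescues. This is not the order of the mark in the paper. There, total H3K27me3 was lower with the Ezh1 than with the Ezh2 rescue, and its distribution along the genome was weaker. The paper also reports similar total levels in the Ezh2 rescue and the wild type. The coverage values therefore do not rank the conditions by amount of mark.

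**Figure D1:**
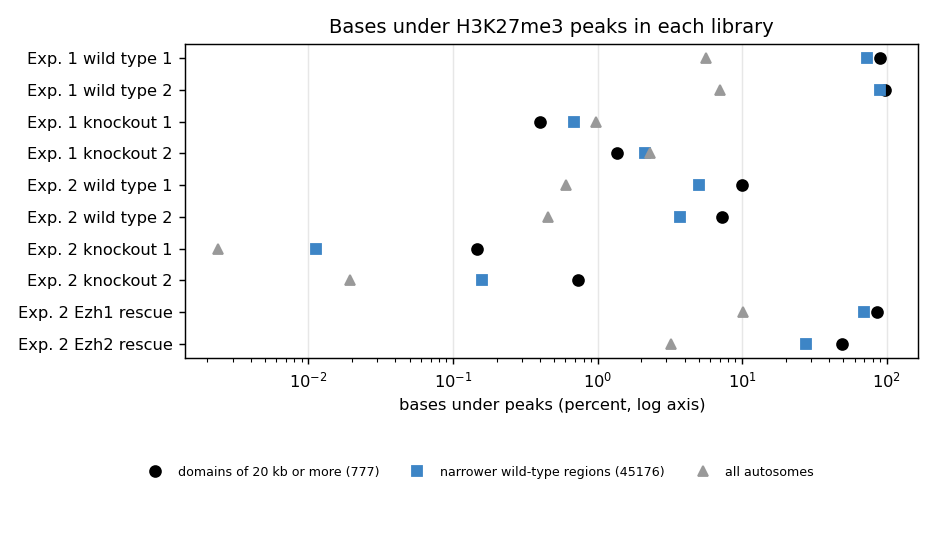
Percentage of bases under H3K27me3 peaks (x axis, log scale) in each of the 10 libraries (y axis), over the 777 domains (circles), over the 45176 narrower wild-type regions (squares) and over all autosomes (triangles). In the experiment 1 knockouts the circles lie left of the triangles, at 0.401% and 1.37%, whereas in every library of experiment 2 they lie to the right.

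Within experiment 2 the mean coverage was 8.61% ± 1.88 (SD, n = 2) in the wild type and 0.438% ± 0.411 (SD, n = 2) in the knockout. The knockout mean was 5.09% of the wild-type mean, and the difference of -8.18 percentage points had p = 0.33 in a two-sided exact permutation test, the smallest value that 2 against 2 libraries allow. With 1 library each, the rescues have no replicate check. Coefficients that the study describes for the knockout and the Ezh1 rescue, set by the amount of precipitated DNA, are not visible in the lists, and their part in these differences was not tested.

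The experiment 2 wild type met the domains often but in small pieces. A peak of replicate 1 lay in 693 of them and a peak of replicate 2 in 618, while 570 (73.4%) met both. The corresponding share was 7.64% among all reproducible wild-type regions, which are mostly far narrower, and 4.74% among 20-kb windows. Contact rose with width. Among regions of 10 to 20 kb, 63.2% met replicate 1 and 49.7% replicate 2, beside 89.2% and 79.5% of the domains. Coverage of those regions was 7.22% and 5.29% of bases, not far below that of the domains. Experiment 2 wild-type peaks in the domains had a median width of 850 bp in both replicates and none exceeded 3800 bp. By contrast, experiment 1 wild-type peaks in the domains had a median width of 4127 bp in replicate 1 and 18309 bp in replicate 2. The lists of the experiments also differed in form. Median and greatest widths were round numbers in experiment 2, such as 750, 850 and 3650 bp. In experiment 1 they were not, as with 941 and 18309 bp. The part of peak calling in these widths was not tested. Relative to the autosomes, the domains were 16.6-fold and 16.0-fold more covered in the experiment 2 wild type, and relative to narrower regions 1.99-fold and 1.97-fold. The fraction of the autosomes under peaks was 0.601% and 0.455% in these libraries.

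Coverage by the experiment 2 wild type was highest in the Srcin1 domain, at 44.3% and 45.4%. Srcin1 encodes an inhibitor of Src kinase signalling. Next came Tmcc3 with 33.8% and 48.9%, the domain of Hoxb9 and Hoxb8 with 40.3% and 30.1%, and Slc4a1, the anion exchanger of red blood cells, with 34.5% and 35.1%. In the Gm20388 domain, downstream of Irf8, it was 30.3% and 37.4%. All 5 were also at least 80.4% covered in the Ezh2 rescue and at least 99.6% in the Ezh1 rescue.

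The 10 widest domains were nearly free of peaks in the knockouts and differed in the rescues. The widest, 91291 bp from Adra1b, an adrenergic receptor gene, had 85.5% of its bases under Ezh1 rescue peaks and 43.1% under Ezh2 rescue peaks. Around Hoxb13 (96617 bp) these were 100% and 76.4%, and its experiment 2 wild-type values of 28.8% and 18.9% were the highest of the 10. At Irf8, which encodes a regulator of myeloid and B cells, they were 99.9% and 76.5%. The domain of 93146 bp within Kcnq1, a potassium channel gene, had 98.0% and 41.3%. The domain next to Rfx3 (82335 bp), a transcription factor of ciliated cells, went the other way, with 4.13% under Ezh1 rescue peaks and 34.8% under those of the Ezh2 rescue.

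**Figure D2:**
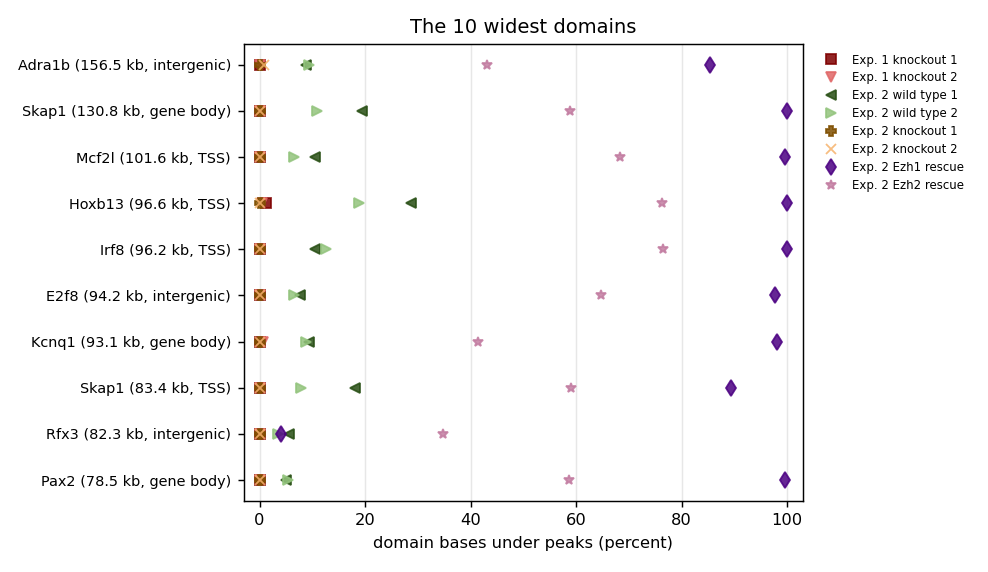
Percentage of domain bases under peaks (x axis) in the 10 widest domains (y axis, named by the gene whose TSS lies inside, else the overlapping or nearest gene, with width and class), 1 symbol for each library other than the experiment 1 wild type. Ezh1 rescue values lie at 85.5% or above in every domain but that next to Rfx3, at 4.13%, and knockout values lie at or near 0.

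The Ezh1 rescue had the highest coverage of the experiment 2 libraries, at 85.7% of domain bases. At least 50% of the bases lay under its peaks in 685 domains (88.2%), against 66% of all reproducible wild-type regions and 8.88% of 20-kb windows. At least 90% was covered in 540 domains, a share of 69.5% beside 45.4% of all such regions and 2.72% of windows, and 251 lay inside a single Ezh1 rescue peak. Those 251 fell in 216 peaks with a median width of 48275 bp, and over the 251 domains the peak ran a median of 24664 bp beyond the domain. Expressed per autosome, however, the Ezh1 rescue was the least concentrated on the domains of the experiment 2 libraries, with an 8.39-fold excess, since it covered 10.2% of the autosomes.

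The Ezh2 rescue covered the domains in many smaller peaks, 6194 with a median width of 1300 bp. It reached 50% in 349 domains (44.9%), whereas 18.8% of all reproducible wild-type regions and 1.24% of 20-kb windows did so. At least 90% was covered in 27 domains (3.47%, beside 4.23% and 0.0677%), and none lay inside a single peak. Its excess over the autosomes was 15-fold, beside the 16.6-fold and 16.0-fold of the experiment 2 wild type. Highest were the domains of Adamtsl2 and Fam163b (99.8%), Srcin1 (99.1%), Col27a1, a fibrillar collagen gene (97.9%), C130026L21Rik (97.4%) and Arid3a, a DNA-binding factor (97.0%).

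The Ezh1 rescue covered more than the Ezh2 rescue in 729 domains (93.8%), less in 45 and the same in 3. The first share was 74.1% among all reproducible wild-type regions and 29.4% among 20-kb windows, many of which met neither. The median difference was 37.5 percentage points. Narrower regions under a peak of either rescue showed this order in 90.9% of 36659. What the Ezh2 rescue covered was nested in the rest: 96.6% of its domain bases also lay under Ezh1 rescue peaks. For the experiment 2 wild type, 96.2% and 97.6% of its bases in domains lay under Ezh1 rescue peaks, and 84.8% and 89.1% under Ezh2 rescue peaks.

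A minority of domains had little or no rescue coverage. Under 10% of the bases were covered in 29 domains by Ezh1 rescue peaks, in 36 by those of the Ezh2 rescue and in 13 by both. Among all reproducible wild-type regions the first of these shares was 22.4% and the second 54%, and among 20-kb windows they were 78.8% and 89.9%. In 10 domains the Ezh1 rescue had no peak at all: a domain within Ptprc, the CD45 gene of blood cells, another within Htr4, a serotonin receptor gene, one within Pdzrn4, a pair near Dcc, a netrin receptor gene, and one each near Klf4, Pid1, Mc2r, Snx2 and Actl7b. The Ezh2 rescue had no peak in 9 domains, among them a pair within Sox6, a transcription factor of cartilage and muscle, and one within Cadps, a gene of vesicle release. One of the Sox6 domains (45234 bp) had 37.3% in the Ezh1 rescue and the other (25347 bp) 6.51%, and the Cadps domain had 67%. None of these domains had a peak in any of the 4 knockout lists.

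Coverage in both rescues followed the base composition of the domains. G+C content was 46.0% over the domains, 44.9% over narrower regions and 41.9% over the autosomes, with 10.9, 10.0 and 8.51 CG dinucleotides per kb. With the domains ordered by G+C content into 5 equal groups, 54.4%, 82.3%, 94.2%, 98.8% and 98.8% of bases lay under Ezh1 rescue peaks from the lowest to the highest group. The Ezh2 rescue went from 27.5% in the lowest to 72.5% in the highest. In the experiment 2 wild type the range was 6.82% to 13% in replicate 1 and 4.04% to 11.3% in replicate 2. Knockout coverage also rose from the lowest to the highest group in experiment 1, from 0.0208% to 1.12% and from 0.0538% to 4.78%. In experiment 2 knockout replicate 2 it went from 0.266% to 1.62%, while replicate 1 was highest in group 2, at 0.482%. The lowest group held 26 of the 29 domains under 10% in the Ezh1 rescue and 26 of the 36 under 10% in the Ezh2 rescue. Spearman's rho with G+C content across the 777 domains was 0.73 for the Ezh1 rescue, 0.72 for the Ezh2 rescue, 0.29 and 0.37 for the experiment 2 wild type, and 0.28 and -0.18 for the experiment 1 wild type that chose them. Domains share a library and many are neighbours, so these are descriptions. Narrower regions of 5 to 20 kb showed the same order, from 43.5% to 97.2% for the Ezh1 rescue and from 15% to 60.9% for the Ezh2 rescue, within the same G+C limits. Over autosomal 20-kb windows, coverage was higher in the highest than in the lowest group in every library. The experiment 1 wild type went from 2.40% to 19.7% and from 3.48% to 20.4% there. The part of sequencing and amplification in this relation was not tested.

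**Figure D3:**
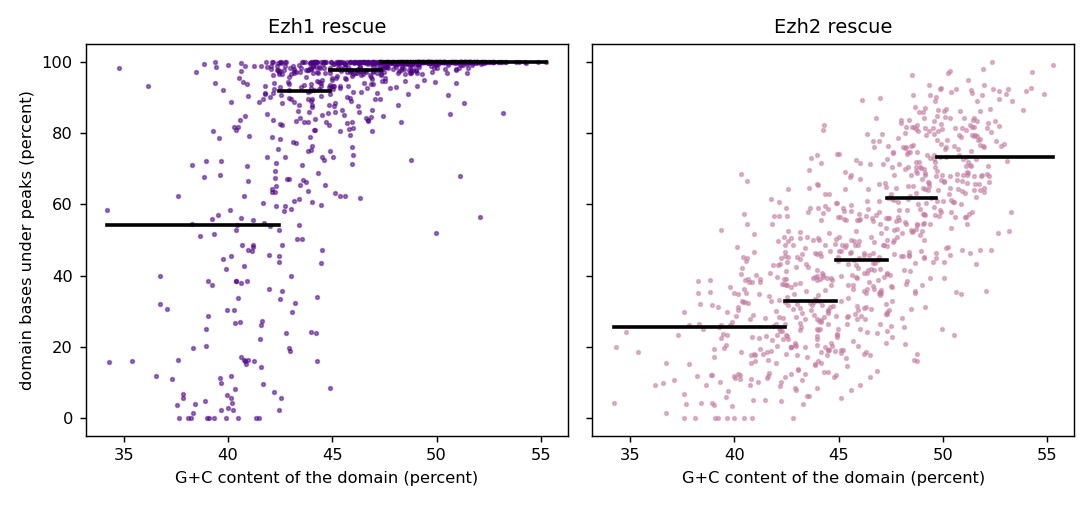
Percentage of domain bases under peaks (y axis) against the G+C content of the domain in percent (x axis) in the Ezh1 rescue (left) and the Ezh2 rescue (right), 1 point for each of the 777 domains, with black bars at the median of each of 5 groups by G+C content. In the Ezh1 rescue the median goes from 54.3% in the lowest group to 100% in the 2 highest, and in the Ezh2 rescue it goes from 25.5% to 73.2%.

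Rescue coverage was also described by position. With each domain divided into 10 equal bins, Ezh1 rescue coverage was 86.8% in the middle 4 bins, 82.9% in the outermost bins and 68.5% in the adjacent bin outside. For the Ezh2 rescue the values were 50.7%, 43.0% and 28.5%. The dip just outside the domains in the experiment 1 wild type, to 38.8% and 45.2%, is set by the rule, which ends a domain where the peaks end. Within 2500 bp of a protein-coding TSS 64.5% of domain bases lay under Ezh2 rescue peaks, against 47.9% elsewhere in the domains. For the Ezh1 rescue this was 95.5% against 85.2%, and for the experiment 2 wild type 13.4% and 10.7% against 9.75% and 7.10%. Domains that held a TSS also had the highest Ezh2 rescue coverage of the 3 classes, 55.1%, against 49.95% in gene bodies and 43.5% between genes, and they had a median G+C content of 47.5% against 46.7% and 44.8%.

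**Figure D4:**
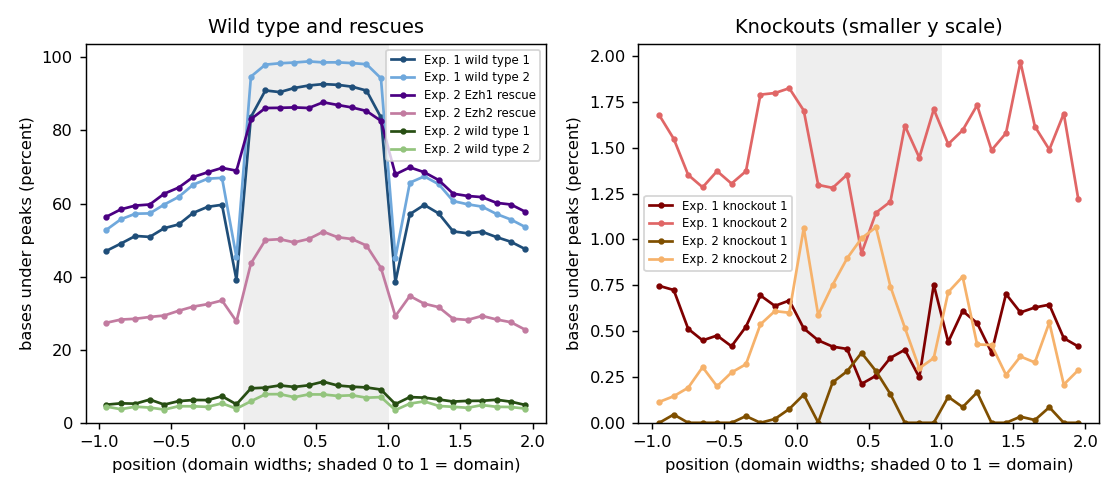
Mean percentage of bases under peaks (y axis) along the domains and 1 domain width on either side (x axis in domain widths, with the domain shaded from 0 to 1), for wild type and rescues (left) and for knockouts (right, on a smaller y scale), 1 line for each library. Ezh1 rescue coverage drops from 82.9% in the outermost bins to 68.5% just outside, while the experiment 1 knockout lines show no rise inside the domains.

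Peaks that remained in the knockouts concentrated in few domains. No peak of any of the 4 knockout lists met 645 domains (83.0%), a share of 93.7% among all reproducible wild-type regions and 77.2% among 20-kb windows. In experiment 1 alone 681 (87.6%) met none and 96 met at least 1 list, as did 5.87% of such regions and 22.7% of windows. Both experiment 1 knockout lists had a peak in 42 domains (5.41%), against 2.37% of all reproducible wild-type regions, which are mostly narrower, and 11.1% of 20-kb windows. By bases, the domains were less covered than the autosomes as a whole in these libraries, at 0.408-fold and 0.598-fold, and also less than narrower regions, at 0.579-fold and 0.638-fold. The 10 most covered domains held 65.8% and 66.6% of the covered bases. Chromosome 5 alone, with 57 of the domains (7.34%), held 29.9% and 53.1%. The whole of chromosome 5 was 3.38% and 8.05% covered in these libraries, and its domains 1.64% and 9.92%. Without chromosome 5, coverage of the domains was 0.303% and 0.693%, and that of the autosomes 0.824% and 1.91%.

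Rbfox3, which encodes the neuronal splicing factor NeuN, held the most covered domains in the experiment 1 knockouts. One (27969 bp) had 55.6% and 97.3% of its bases under knockout peaks, the other (20864 bp) 47.4% and 94.9%. Their flanks of 1 domain width had 53.4% and 98.0%, and 54.9% and 95.5%, so that coverage did not stop at the edge of either domain. Sfswap, a splicing regulator on chromosome 5, had 32.0% and 73.5%, with 5.59% and 21.2% in its flanks. In the following domains replicate 2 was far above replicate 1: Cpz, a carboxypeptidase gene, had 4.82% and 64.4%, and a pair within Sorcs2, a sorting receptor gene, had 7.78% and 59.6%, and 3.26% and 58.8%. The same order held for the E130018O15Rik domain, with 7.14% and 47.3%, and that of Hmx1, with 6.38% and 34.7%. Replicates were close in the domain of Lhx1, a homeobox factor, at 19.5% and 24.7%, and in that of Foxd2, a forkhead factor, at 17.6% and 20.8%. Of these domains, those of Cpz, Hmx1, E130018O15Rik and the narrower of the Sorcs2 pair had a peak in experiment 2 knockout replicate 2. Its peaks covered 11.8%, 17.5%, 4.38% and 2.32% of their bases. The other domains named here had no peak in either experiment 2 knockout.

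The experiment 2 knockouts gave another picture. Their lists were short, with 29 and 382 autosomal peaks, and 13 and 113 of these lay in the domains, where 58.4% and 35.2% of the covered bases stood. Relative to the autosomes the domains were 62.0-fold and 37.4-fold more covered. Both lists met 10 domains (1.29%), against 0.0544% of all reproducible wild-type regions and 0.0201% of 20-kb windows. Replicate 2 alone met 54 domains (6.95%), against 0.555% and 0.244%. Most of those regions are narrower, and among wild-type regions of 10 to 20 kb the share for replicate 2 was 2.5%. Of the 96 domains with a peak in either experiment 1 knockout, 18 (18.8%) had one in either experiment 2 knockout, which is 33.3% of the 54 of experiment 2.

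In the domain that overlaps Grinl1a and Gcom1 (chr9:71337023-71391272), knockout coverage was 33.5% and 46.7% and wild-type coverage 25.1% and 23.6% in experiment 2. It was the only domain in which both knockouts lay above both wild types. Its experiment 1 knockout values were 0% and 0.433%, and its flanks had no experiment 2 knockout peak. The next domains lay at Adamts8, a metalloprotease gene, with 15.7% and 35.8% in the knockouts and 38.6% and 28.4% in the wild type, and at Prdm12, a factor of sensory neurons, with 6.86% and 26.3% against 12% and 9.57%. At C130026L21Rik knockout values were 2.85% and 35.5%, and at Tox2, an HMG-box factor gene, they were 3.48% and 29.1%. Knockout replicate 2 was above replicate 1 in each of these domains, and the replicates of the knockout differed by more than the wild-type replicates did.

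**Figure D5:**
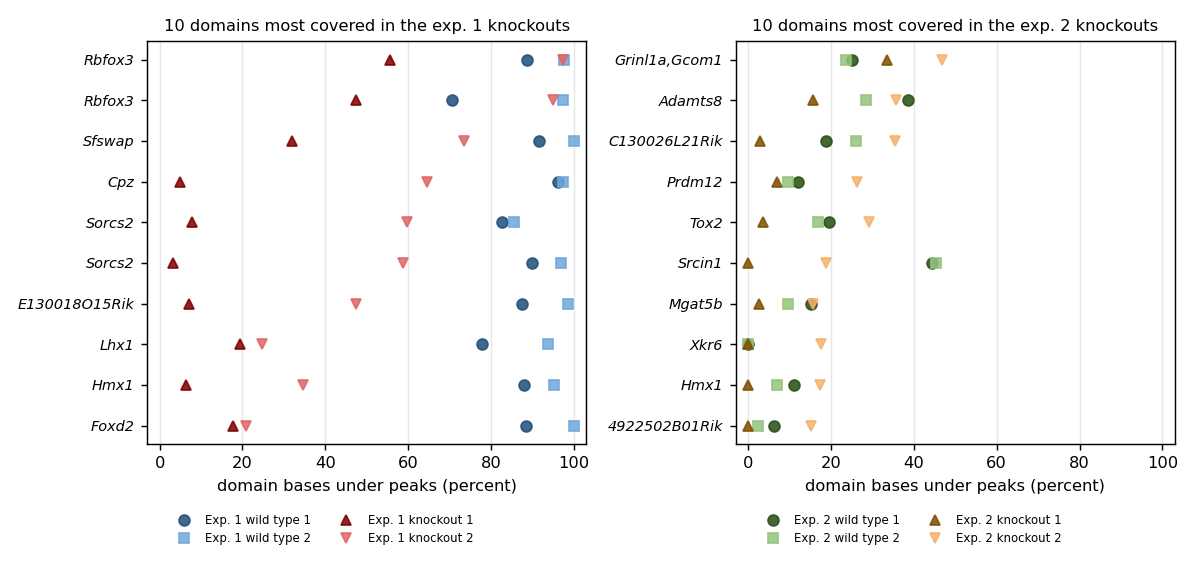
Percentage of domain bases under peaks (x axis) in the 10 domains most covered in the experiment 1 knockouts (left) and in the experiment 2 knockouts (right), named on the y axis by gene, with 1 symbol for each wild-type and knockout library of that experiment. On the left both Rbfox3 domains reach 97.3% and 94.9% in replicate 2, and on the right both knockouts lie above both wild types only for Grinl1a and Gcom1.

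Of the domains that hold the TSS of a listed gene, experiment 1 knockout peaks met 4 of 6 with HOX genes, 3 of 9 with neural and ectodermal factors, 1 of 3 with mesoderm and endoderm factors and 1 of 5 with blood and endothelial genes, beside 96 of all 777. Hoxa10 and Hoxa11 shared a domain of 24846 bp with 12.1% and 12.7% under the experiment 1 knockout peaks and none in experiment 2. The domain of Nkx2-3, a homeobox factor of gut and spleen, had 11.5% and 13%, again with none in experiment 2. Hoxb7, Hoxb6 and Hoxb5 shared one with 5.33% and 1.96%, and Pax3, a factor of neural crest and muscle, had 2.13% and 3.46%. Irf8, Vax2, Pitx1 and Tcf21 had 0% in all 4 knockouts. At these 4 genes the Ezh1 rescue covered 99.9%, 99.9%, 100% and 100%, and the Ezh2 rescue 76.5%, 76.0%, 47.2% and 46.9%. Lmo2, a factor of blood stem cells, had no peak in either experiment 2 wild type, 100% under Ezh1 rescue peaks and 17.6% under those of the Ezh2 rescue.

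The regions nearest to the width limit were as follows. Just inside it were a domain within Snx20 (20021 bp), with 100% under Ezh1 rescue peaks and 79.4% under those of the Ezh2 rescue, and one near Krt7 (20008 bp), with 89.0% and 20.2%. Just outside were a region near 4933436C20Rik (19986 bp), with 81.6% and 39.3%, and one within Epb4.1l4b (19979 bp), with 96.5% and 46.0%. None of the 4 had a knockout peak.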

How the data were processed

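The data were H3K27me3 peak lists from ChIP-seq of 10 libraries, grouped by the sample labels. The inputs have no list used here. According to the methods and processing notes, the authors mapped reads to mm9 with Bowtie 0.12.8 or Bowtie2 2.1.0, removed duplicates with SAMtools, down-sampled, scaled some conditions by a coefficient and called the peaks of each sample with MACS2 2.0.10 against input. The deposited values are peak starts and ends, with no score, so depth is unknown.

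Domains were built as described above, with 1-based positions. Coverage was the percentage of bases under the merged peaks of a library. Genes and sequence came from GENCODE on NCBIM37 (mm9). Of 591 members of 13 gene lists, 2 were not matched. Domains named were the 10 widest, those highest or lowest in a condition, those with most TSSs, those beside the width limit, and list members. The group of neighbouring domains, Ngfr, Hmx1, E130018O15Rik, further list members and the domains most covered in the experiment 2 knockouts were named after values were seen. The domains and lists were chosen with earlier results of these data known. The exact permutation test was run over the 4 wild-type and knockout libraries of experiment 2. Interval code was tested on simulated data. Python 3.11.15, NumPy 2.4.6, SciPy 1.17.1, pysam 0.24.0 and matplotlib 3.10.9 were used.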

Additional observations from a re-analysis of the deposited data

Results flagged for a closer look

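In the domain that overlaps Grinl1a and Gcom1, the experiment 2 knockout minus wild type difference was 15.8 percentage points, with both knockouts above both wild types, whereas over all domains it was -8.18 percentage points. The difference between this domain and the others was not tested.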

How the results depend on the processing

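The difference between experiment 2 knockout and wild type was negative under every alternative run, with p = 0.33 in the exact permutation test where both groups had 2 libraries. It was between -10.8 and -6.85 percentage points when 1 library was left out. With the replicate number as a block the difference was -8.18 (exact sign-flip p = 0.5). Same-numbered deviations of wild type and knockout correlated at 0.0086 in experiment 1 and 0.020 in experiment 2 across 777 domains, and the samples share only a number. Joining peaks under 1000 bp apart gave 1576 domains, 82.4% Ezh1 and 42.0% Ezh2 rescue coverage, 117 domains with a peak in both experiment 1 knockouts, 614 genes and 46.1% G+C. A minimum width of 15000 bp gave 1517, 84.4%, 46.3%, 76, 357 and 46.0%, and one of 30000 bp gave 259, 88.0%, 51.3%, 21, 101 and 45.9%, in the same order. With peaks of at least 1000 bp, experiment 2 wild-type coverage was 4.07%, rescue coverage 84.4% and 43.0%, and 14 domains met both knockouts. Adding chromosome X gave 85.5%, 48.6% and 45.9% G+C. Leaving out a wild-type library of experiment 1 gave 260 to 591 domains, 85.7% to 91.6% and 48.9% to 61.9% rescue coverage, 15 to 31 domains with both knockouts, 71 to 151 genes and 45.6% to 46.9% G+C. Leaving out 1 library, mean coverage was 0.401% to 1.37% in the experiment 1 knockout and 7.29% to 11.9% in the experiment 2 wild type. A peak in either knockout was found in 96 domains. A TSS within 2500 bp was found for 335 genes, and 350 annotated genes of any type had one inside. Leaving out chromosome 5, chosen after seeing the data, gave 0.498% in the experiment 1 knockout. The cause of these changes was not tested. Peak positions without heights limit every value to where the mark was called.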
